A study of Rattus norvegicus with 4 samples.

Results

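The hepatic steroid metabolizing enzymes described here are 7 genes, namely *Cyp17a1*, *Srd5a1*, *Akr1d1*, *Hsd17b2*, *Hsd17b6*, *Hsd17b13*, and *Sts*. They were chosen by gene symbol, and all 7 were found among the 16992 annotated genes of the deposited tables. The series consists of total RNA sequencing of the left lateral hepatic lobe in 4 male wild type Wistar rats, that is, 1 animal and 1 library per condition. The animals were 6 weeks old when purchased and were kept for at least 1 week before use, and food and water were withheld for a short time before anesthesia. They breathed 4.5% sevoflurane or 6% desflurane in 50% oxygen through a nose cone, either for 6 h or, as the control of the same agent, for less than 1 minute until consciousness was lost. All 4 rats were therefore exposed to an anesthetic agent, and no liver came from a rat without exposure. The values are StringTie TPM values, a measure of RNA abundance scaled to transcript length and library size, and they are given for each agent as a pair of the control and the 6 h liver. Because each condition has 1 library, no p-value is given for either agent alone. The only test with p-values given compares both 6 h livers with both controls and so treats livers of different agents as replicates.

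The liver takes up circulating steroid hormones and inactivates most of them by reduction of the A ring, by oxidation of hydroxyl groups, and by conjugation. *Akr1d1* encodes the 5β-reductase, which also acts on the intermediates of bile acid synthesis, and *Srd5a1* encodes a 5α-reductase that converts testosterone into the more potent dihydrotestosterone. *Hsd17b2* encodes a dehydrogenase that oxidizes estradiol and testosterone to less active ketones, whereas the product of *Hsd17b6* oxidizes androstanediol back to dihydrotestosterone. *Hsd17b13* belongs to the same enzyme superfamily but is a hepatocyte protein of the lipid droplet surface. *Cyp17a1* encodes the P450 that hydroxylates progestins and removes their side chain to produce androgen precursors, and *Sts* encodes the sulfatase that releases free steroids from their sulfates.

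The libraries corresponded to between 4.47 and 5.40 Gb of aligned sequence, as calculated from the ratio of FPKM to coverage. All 9 hepatocyte marker genes were present in every library, with summed TPM values between 134571 and 151479. Marker genes of other cells also differed between libraries. The summed TPM value of 9 pancreatic acinar genes was 62.2 in the sevoflurane control and between 16.2 and 18.8 in the other libraries. In those other libraries, 4 to 6 of the 9 genes, including the defining genes *Prss1*, *Ctrb1*, and *Pnlip*, were listed at 0. Most of the sum there was *Cela1*, at 15.1 to 18.4, against 22.8 in the sevoflurane control. All 9 acinar genes were lower with sevoflurane than in its control, and 8 of them passed the 2-fold rule given below. The share over all genes called downregulated with sevoflurane was 3.3% of 9754, which also applies to the marker lists that follow. With desflurane, 1 acinar gene, *Cpb1*, was called upregulated (0.784 to 2.59), compared with 2.79% of 9855 genes. The summed TPM value of 8 Kupffer cell genes was 419 after 6 h of sevoflurane and between 505 and 648 in the other libraries, and 8 of 8 were lower with sevoflurane, of which 1 passed. The ranges of the other lists were 178 to 212 for 6 endothelial genes, 284 to 313 for 7 stellate cell genes, 14.3 to 21.0 for 4 cholangiocyte genes, and 22.2 to 31.0 for 8 lymphocyte genes. Of the lymphocyte genes, 7 of 8 were lower with sevoflurane than in its control, and 3 of them passed the rule at low TPM values (*Cd8a*, *Cd79b*, and *Nkg7*). In bulk liver RNA, fewer cells of a type and less RNA per cell cannot be told apart, and the part of these markers in the results was not tested.

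The 7 genes covered a wide range of abundance. By mean TPM, *Akr1d1* (1312) was the most abundant, followed by *Hsd17b2* (713), *Srd5a1* (288), *Hsd17b13* (207), *Hsd17b6* (145), *Cyp17a1* (44.2), and *Sts* (41.4). *Akr1d1* ranked between 64 and 94 among all genes in the 4 libraries, and *Hsd17b2* ranked between 106 and 188. The lowest *Akr1d1* value (986) was higher than the highest *Hsd17b2* value (917), and the lowest *Hsd17b2* value (484) was higher than the highest *Srd5a1* value (392). The ranges of *Srd5a1* and *Hsd17b13* overlapped, as did those of *Hsd17b13* and *Hsd17b6*, although *Hsd17b13* was above *Hsd17b6* within each of the 4 libraries and *Srd5a1* was above *Hsd17b13* in 3 of them. *Sts* was within the range of *Cyp17a1* in all libraries. All 7 genes had TPM values higher than 2 in every library, and the lowest coverage of a member was 44.1 reads per base, for *Cyp17a1* in the sevoflurane control.

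**Figure D1:**
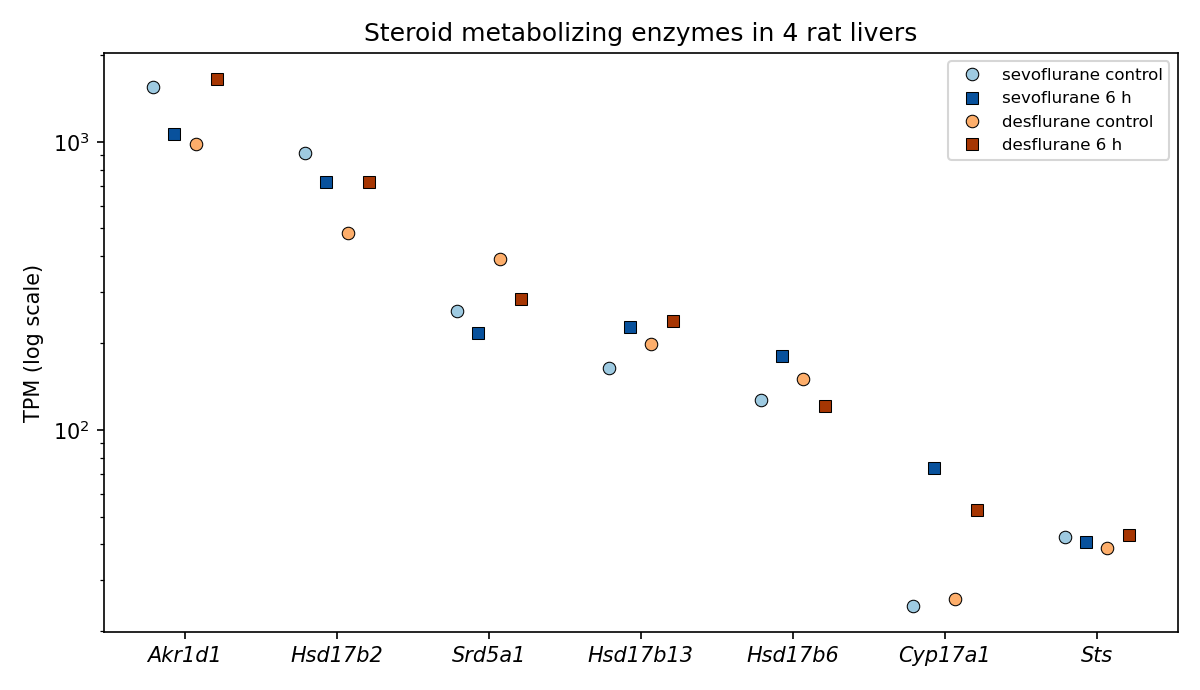
TPM values (log scale) of the 7 genes in the 4 livers, ordered by mean TPM, with circles for controls and squares for 6 h of anesthesia (1 library for each point, no error bars). *Cyp17a1* is the gene whose squares lie far above its circles (52.8 and 73.8 against 24.5 and 25.8), and the 4 *Sts* points lie between 39.0 and 43.3.

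A gene was called upregulated or downregulated by the rule in the paper's methods, that is, a TPM value higher than 2 in the higher state and a difference of more than 2-fold. With sevoflurane, *Cyp17a1* was upregulated and the other 6 members did not pass the rule against the sevoflurane control, compared with 2.23% of 9754 genes called upregulated and 3.3% called downregulated. With desflurane, *Cyp17a1* was again the only member called, compared with 2.79% of 9855 genes upregulated and 1.48% downregulated. When the controls were exchanged, *Cyp17a1* was still upregulated, and no other member passed. With exchanged controls, 2.52% of genes passed upward and 2.59% downward for sevoflurane, and 2.84% upward and 1.58% downward for desflurane. A lower limit of 1.5-fold gave 1 member with sevoflurane (16.1% of genes in either direction) and 3 members with desflurane (*Cyp17a1*, *Akr1d1*, and *Hsd17b2*, 14.6% of genes). With exchanged controls, this limit gave 2 members with sevoflurane (*Cyp17a1* higher and *Srd5a1* lower, 15.9% of genes) and 1 with desflurane (14.2% of genes). Over all genes that exceeded the TPM limit in both libraries of a pair, the median log2 change was 0.06 for sevoflurane and 0.12 for desflurane, and the median of the 7 members was -0.06 and 0.27. The changes given here are to be read relative to these shifts.

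*Cyp17a1* (rn6 chr1:266422151-266428144, minus strand) had TPM values of 24.5 (control) and 73.8 (6 h) in the sevoflurane pair and 25.8 (control) and 52.8 (6 h) in the desflurane pair. The controls were nearly equal, and both anesthetized livers were well above them. The value was 3.01-fold higher with sevoflurane and 2.05-fold higher with desflurane than in the respective control, which corresponds to log2 changes of 1.59 and 1.03. Against the control of the other agent, the values were 2.86-fold and 2.15-fold higher. The difference between the controls was 1.05-fold, and the sevoflurane liver was 1.40-fold higher than the desflurane liver after 6 h. Among genes that exceeded the TPM limit in both libraries of a pair, *Cyp17a1* had the place 32 of 5286 genes that were higher with sevoflurane and the place 182 of 6285 genes that were higher with desflurane. In all 4 comparisons of an anesthetized liver with a control, 0.49% of 9993 genes were called upregulated, and *Cyp17a1* was 1 of these 49 genes. The call with desflurane was close to the limit. The change was 1.87-fold after median-of-ratios scaling and 1.94-fold when FPKM was used, so that the gene did not pass with desflurane under either setting, whereas it passed with sevoflurane under both (2.90-fold).

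With both 6 h livers set against both controls over 9993 genes (limma on log2(TPM + 1), Benjamini-Hochberg adjustment), 0 of the 7 members passed an adjusted p of 0.05. This test called 6 genes, all higher, that is, 0.06% of genes, and 13.2% of genes had an unadjusted p under 0.05. *Cyp17a1* was higher by 1.28 ± 0.18 on the log2 scale (SE, n = 2 livers per side), higher in 2 of 2 anesthetized livers, with an unadjusted limma p of 0.00059 and an adjusted p of 0.118. With the agent as a block, the adjusted limma p was 0.190, and 1 gene, or 0.01%, was called. The log2 difference of *Cyp17a1* was 1.52 without the desflurane 6 h liver and 1.04 without the sevoflurane 6 h liver, each with 1 anesthetized liver left. With all livers and no block, *Hsd17b13* was higher by 0.37 ± 0.14, with an unadjusted limma p of 0.0436 and an adjusted p of 0.363. The adjusted limma p of the other 5 members was between 0.559 and 0.919.

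The transcript structure at this locus was also examined in the rows that StringTie assembled from the reads, which repeat the annotated genes. In all 4 libraries, the assembled *Cyp17a1* row extended between 1787 and 1848 bases beyond the annotated 5′ end. Its TPM value was between 0.888 and 0.940 of that of the annotated row, and the fold changes calculated from the assembled rows were 3.07 with sevoflurane and 2.09 with desflurane. The assembled rows of *Hsd17b13* and *Hsd17b6* differed from the annotation by at most 1 base at either end. For *Hsd17b2*, the assembled row ran between 657 and 10469 bases beyond the annotated 3′ end, and its TPM value was between 0.799 and 1.01 of that of the annotated row. Over all 28 assembled rows on the strand of a member, the median of this ratio was 0.989.

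*Akr1d1* (rn6 chr4:65110706-65143930, plus strand) had TPM values of 1552 (control) and 1063 (6 h) in the sevoflurane pair and 986 (control) and 1647 (6 h) in the desflurane pair. The sevoflurane control and the desflurane liver were thus high, the other 2 libraries were low, and the controls enclosed the 6 h sevoflurane value. Against the own control, the gene was 1.46-fold lower with sevoflurane and 1.67-fold higher with desflurane. The controls differed 1.58-fold from each other, which is similar in size to both changes. Against the control of the other agent, the log2 changes were 0.11 (sevoflurane) and 0.09 (desflurane). The sign with sevoflurane thus depended on the control, and the desflurane liver was 1.06-fold higher than the sevoflurane control.

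*Hsd17b2* (rn6 chr19:50246404-50317892, plus strand) showed a related order. Its TPM values were 917 (control) and 724 (6 h) in the sevoflurane pair and 484 (control) and 728 (6 h) in the desflurane pair. The 2 anesthetized livers were nearly equal (1.01-fold), and the controls were on either side of them with a difference of 1.90-fold. Among the genes above the TPM limit in both controls, 1.54% had a larger difference between them. Against the own control, the log2 changes were -0.34 (sevoflurane) and 0.59 (desflurane), and the sign was the opposite for both agents when the controls were exchanged (0.58 and -0.33).

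*Srd5a1* (rn6 chr1:36320504-36354694, plus strand) was the member with a high value in the desflurane control. Its TPM values were 259 (control) and 216 (6 h) in the sevoflurane pair and 392 (control) and 284 (6 h) in the desflurane pair. The value was 1.20-fold lower with sevoflurane and 1.38-fold lower with desflurane than in the respective control, and neither difference reached that between the controls (1.51-fold). With exchanged controls, it was 1.81-fold lower with sevoflurane and 1.09-fold higher with desflurane. The anesthetized and control values overlapped.

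*Hsd17b6* (rn6 chr7:2412374-2431246, minus strand) had TPM values of 127 (control) and 180 (6 h) in the sevoflurane pair and 150 (control) and 121 (6 h) in the desflurane pair. It was 1.42-fold higher with sevoflurane and 1.24-fold lower with desflurane. The controls differed 1.18-fold, and the direction with each agent was the same against either control (1.20-fold higher with sevoflurane and 1.05-fold lower with desflurane against the control of the other agent). After 6 h, the sevoflurane liver was 1.49-fold higher than the desflurane liver. This gene was lowest after desflurane and highest after sevoflurane.

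*Hsd17b13* (rn6 chr14:7113544-7128218, plus strand) had TPM values of 164 (control) and 228 (6 h) in the sevoflurane pair and 199 (control) and 239 (6 h) in the desflurane pair. Both anesthetized livers were above both controls. The differences were 1.39-fold with sevoflurane and 1.20-fold with desflurane, whereas the controls differed 1.21-fold. *Cyp17a1* and *Hsd17b13* were the 2 of 7 members with both anesthetized livers above both controls, an order also found in 33.3% of 9993 genes. No member had both anesthetized livers below both controls, compared with 13.3% of genes.

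*Sts* (rn6 chrX:45420717-45428748, plus strand) was nearly constant. Its TPM values were 42.5 (control) and 40.8 (6 h) in the sevoflurane pair and 39.0 (control) and 43.3 (6 h) in the desflurane pair, a range of 1.11-fold. The next smallest range among the members was 1.46-fold, for *Hsd17b13*, and the largest was 3.01-fold, for *Cyp17a1*. *Sumf1*, which encodes the enzyme that activates sulfatases, had values between 14.9 and 16.6 and was named after these were seen.

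**Figure D2:**
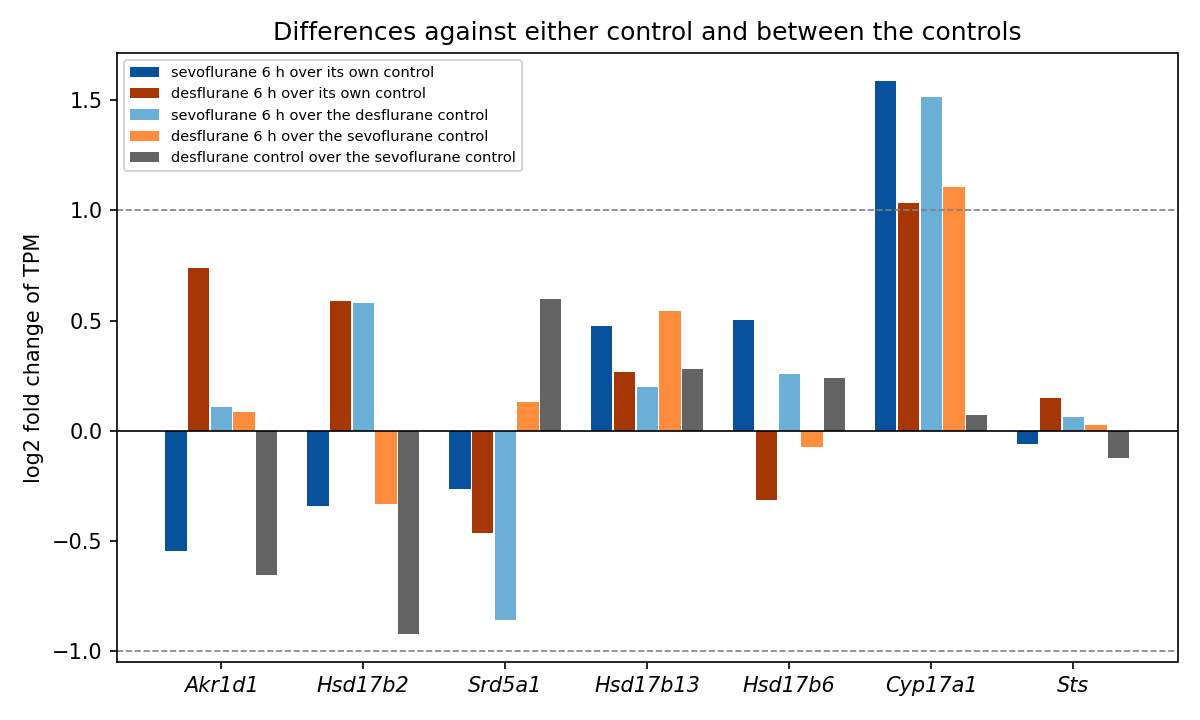
Log2 fold changes of TPM (bars, 1 library on each side, no error bars) for both agents against either control and for the desflurane control over the sevoflurane control, with dashed lines at the 2-fold limit. The *Cyp17a1* bars lie between 1.03 and 1.59 against either control, and the *Akr1d1*, *Hsd17b2*, and *Srd5a1* bars include a difference between the controls of -0.66, -0.92, and 0.60.

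Between the controls, no member passed the 2-fold rule, compared with 2.34% of 9756 genes. With a limit of 1.5-fold, *Srd5a1*, *Akr1d1*, and *Hsd17b2* passed, compared with 7.94% of genes. After 6 h, no member differed more than 2-fold between desflurane and sevoflurane, compared with 3.93% of 9829 genes. With a limit of 1.5-fold, *Akr1d1* was higher with desflurane (1.55-fold), compared with 13% of genes.

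Because TPM is per transcript length, members can be compared within a library. The TPM ratio of *Akr1d1* to *Srd5a1*, the 2 reductases that act on the same double bond of the A ring, was 5.99 (control) and 4.92 (6 h) in the sevoflurane pair and 2.52 (control) and 5.80 (6 h) in the desflurane pair. The desflurane control was the one low value, and the other 3 libraries were similar. The TPM ratio of *Hsd17b2* to *Hsd17b6* was 7.21 (control) and 4.02 (6 h) in the sevoflurane pair and 3.21 (control) and 6.02 (6 h) in the desflurane pair. This ratio was lower with sevoflurane and higher with desflurane than in the respective control. The controls were the highest and the lowest of the 4 libraries. The TPM ratio of *Cyp17a1* to *Sts* was 0.578 and 0.661 in the sevoflurane and desflurane controls, and 1.81 and 1.22 after 6 h of sevoflurane and desflurane, so that *Cyp17a1* was below *Sts* in both controls and above it in both anesthetized livers.

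**Figure D3:**
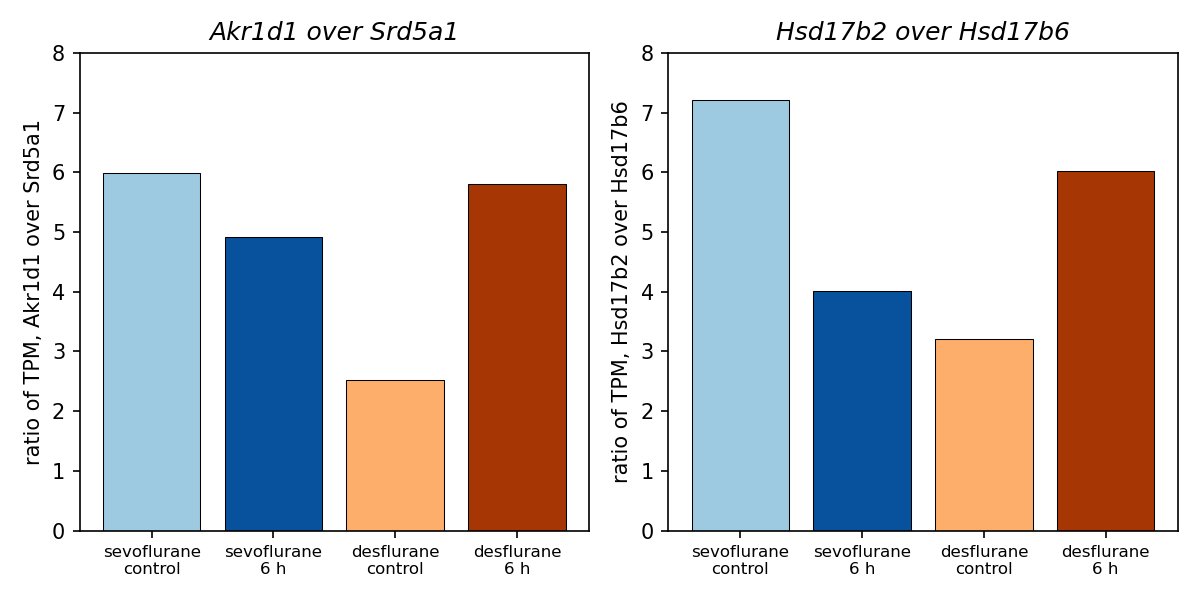
Ratios of TPM within each library (bars from 0, 1 library for each bar, no error bars) for *Akr1d1* over *Srd5a1* (left) and *Hsd17b2* over *Hsd17b6* (right). The desflurane control has the lowest bar in both panels, 2.52 and 3.21, and the sevoflurane control has the highest, 5.99 and 7.21.

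The members that differed most between the controls were set beside a list of 16 genes of rat liver that depend on sex or on growth hormone. In rat liver, *Cyp2c11* and *Cyp3a18* are known as male-predominant P450 genes, *Cyp2c12* and *A1bg* as female-predominant genes, and *Bcl6* and *Cux2* as transcriptional repressors with male and female predominance, and *Srd5a1* is known to be higher in females. Of the list, 9 of 16 genes differed more than 2-fold between the control livers, compared with 2.34% of 9756 genes. Of these 9, 6 were higher and 3 lower in the desflurane control. The list was chosen with earlier results of these data known, so this count is a description only. *Cux2* had TPM values of 0.837 (sevoflurane control) and 9.23 (desflurane control), *A1bg* had 0.353 and 5.01, and *Cyp2c12* was 3.85-fold higher in the latter. *Bcl6* had TPM values of 50.7 and 5.87 in the same order, *Cyp2c11* had 1457 and 544, and *Cyp3a18* had 476 and 142. *Onecut1*, *Cyp2c7*, and *Prlr* were the other 3 genes of this list called higher in the desflurane control. Among genes not called, *Cyp3a2*, *Cyp2c13*, and *Cyp2a2* were 1.66-fold, 1.25-fold, and 1.08-fold lower in the desflurane control, and *Cyp2a1* was 1.19-fold higher. After 6 h of sevoflurane and desflurane, *Bcl6* had 16.6 and 8.49 and *Cux2* had 9.59 and 15.9, so that the sevoflurane control stood apart for both. *Cyp2c12*, *Cyp2c11*, *A1bg*, *Prlr*, *Cyp2c13*, *Cyp2a2*, and *Cyp2a1* were named after their values were seen. Thus, the control liver with the higher *Srd5a1* value also had the higher values of the female-predominant genes named here and the lower values of the male-predominant genes named here, and it had the lower values of *Akr1d1* and *Hsd17b2*. All 4 rats are described as male, and the part of this difference in the comparisons with anesthesia was not tested.

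**Figure D4:**
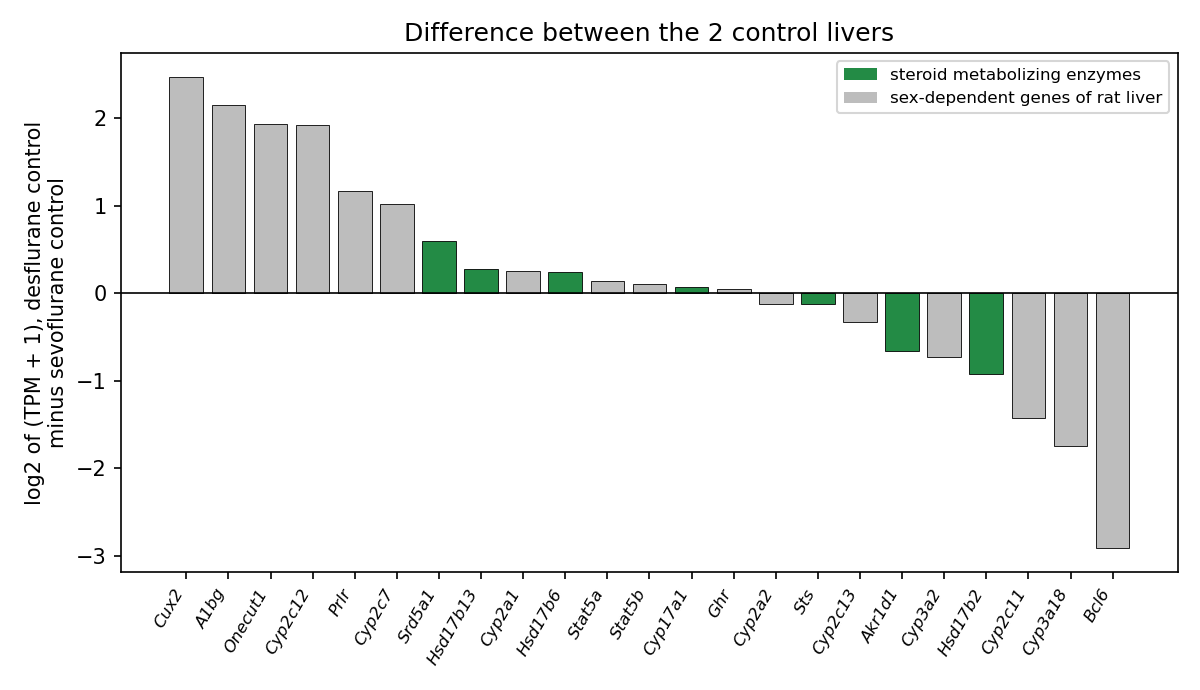
Difference in log2 of (TPM + 1) between the desflurane control and the sevoflurane control (bars, 1 library on each side, no error bars) for the 7 enzymes (green) and the 16 genes of the sex-dependent list (grey). *Srd5a1* (0.59) lies on the side of *Cux2*, *A1bg*, and *Cyp2c12*, and *Akr1d1* (-0.65) and *Hsd17b2* (-0.92) lie on the side of *Bcl6*, *Cyp3a18*, and *Cyp2c11*.

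The genes whose profile over the 4 libraries was most like that of each member were identified by the Euclidean distance of log2(TPM + 1) values centered on their mean, among the 9993 genes that exceeded the TPM limit in at least 1 library. For *Cyp17a1*, these were *Trib3* (distance 0.13), *Gpd1l* (0.19), and *Unc5b* (0.22). *Trib3* had TPM values of 3.79 (control) and 14.9 (6 h) in the sevoflurane pair and 4.31 (control) and 9.69 (6 h) in the desflurane pair, an order of libraries in which the anesthetized livers were also the 2 highest. For *Srd5a1*, the nearest genes were *Avpr1a* (0.04), *Sult2a1* (0.07), and *Ahdc1* (0.12). *Sult2a1*, which encodes a sulfotransferase of hydroxysteroids and bile acids, had TPM values of 1137, 980, 1650, and 1233 in the order sevoflurane control, 6 h of sevoflurane, desflurane control, and 6 h of desflurane, so that it was also highest in the desflurane control. The nearest genes were *Acot12*, *Uqcr11*, and *Fzd8* for *Akr1d1* (0.04 to 0.06), *Acy3*, *Ddah1*, and *Smpdl3b* for *Hsd17b2* (0.10 to 0.17), *Nup37*, *Tmem223*, and *Ahsa1* for *Hsd17b6* (0.01 to 0.07), *Rnf14*, *Cbr4*, and *Vars2* for *Hsd17b13* (0.04 in each case), and *Men1*, *Cript*, and *Pcbp2* for *Sts* (0.01 to 0.02). Among the members themselves, the closest pair was *Hsd17b13* and *Sts* (0.43), followed by *Akr1d1* and *Hsd17b2* (0.48), and the most distant pair was *Cyp17a1* and *Srd5a1* (1.79). Among all these genes, however, *Sts* had the place 4355 from *Hsd17b13*, and *Hsd17b13* had the place 7035 from *Sts*. *Hsd17b2* had the place 993 from *Akr1d1*, and *Akr1d1* had the place 476 from *Hsd17b2*. A gene chosen by this distance shares the profile of the member through the choice itself. With 4 libraries, such distances are a description only.

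Other genes of steroid metabolism were examined as lists. Over all genes, 2.23% of 9754 were called upregulated and 3.3% downregulated with sevoflurane. With desflurane, 2.79% of 9855 were called upregulated and 1.48% downregulated. These shares are the comparison for the counts of each list that follows. Among 27 other reductases and hydroxysteroid dehydrogenases, sevoflurane upregulated 0 and downregulated 3, and desflurane upregulated 1 and downregulated 0. With 1 added to TPM values, the list had a median log2 change of -0.01 for sevoflurane and 0.26 for desflurane. Over the 9993 genes with TPM higher than 2 in any library, it was 0.05 and 0.11, whereas 21 of the 27 list genes met that limit. *Hsd3b5*, a hydroxysteroid dehydrogenase of male liver, had TPM values of 150 (control) and 68.6 (6 h) in the sevoflurane pair and 63.1 (control) and 87.9 (6 h) in the desflurane pair. The sevoflurane control was the one high library, and the sevoflurane value was 1.09-fold higher than the desflurane control. *Hsd3b1* showed the same arrangement at low abundance (2.26 in the sevoflurane control and 0.695 after 6 h of sevoflurane), and *Akr1c1* (36.4 and 18.1) was downregulated by sevoflurane against either control. *Rdh16* was 4.10-fold higher with desflurane than in its own control and 1.89-fold higher than in the sevoflurane control. The most abundant genes of the list were *Akr1c14*, the 3α-hydroxysteroid dehydrogenase of rat liver, and *Hsd11b1*, which regenerates active glucocorticoid. *Akr1c14* had TPM values of 670 (control) and 1159 (6 h) in the sevoflurane pair and 726 (control) and 1092 (6 h) in the desflurane pair. Both anesthetized livers were above both controls for this gene, with differences of 1.73-fold and 1.51-fold that did not pass the rule. *Hsd11b1* was 1.21-fold and 1.29-fold higher. The *Akr1c* genes are close paralogs that share sequence, and their separate values are uncertain.

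*Cyp17a1* needs electrons from P450 oxidoreductase (*Por*), and cytochrome b5 (*Cyb5a*) enhances its side chain cleavage. *Por* was upregulated by both agents, with TPM values of 144 (control) and 642 (6 h) in the sevoflurane pair and 119 (control) and 415 (6 h) in the desflurane pair. As for *Cyp17a1*, both anesthetized livers were above both controls and the sevoflurane liver was the highest. It was the 1 gene called among 7 electron transfer genes with each agent. The list medians on the log2 scale were 0.03 for sevoflurane and 0.11 for desflurane. *Cyb5a* was 1.18-fold and 1.44-fold higher with sevoflurane and desflurane, and *Pgrmc1*, a heme-binding partner of P450 enzymes, was 1.11-fold and 1.08-fold higher.

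Several genes of steroid production in the adrenal gland and gonads were nearly absent. *Cyp11a1*, *Cyp11b1*, *Cyp11b2*, and *Cyp11b3* were listed at 0 in all 4 libraries. These are the defining P450 genes of steroid-producing tissue. *Cyp19a1* was at most 0.0740, *Cyp21a1* at most 0.352, and *Star* at most 1.01. All 7 were named here with their values already seen. Of the 11 genes of this list, 4 had TPM values higher than 2 in any library, and *Fdx1* and *Stard3* were the most abundant, with the highest values of 104 and 30.4. *Tspo* was 2.04-fold lower with desflurane, at TPM values of 3.19 and 1.57, and was the 1 gene of this list called. The median log2 change was 0 with both agents. This median falls on the genes listed at 0 in all 4 libraries and does not describe the expressed genes.

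Among 14 genes of steroid conjugation and sulfatase activation, sevoflurane upregulated and downregulated 0, and desflurane upregulated 1. The upregulated gene was the sulfotransferase gene *Sult2a2*, with TPM values of 10.4 in the desflurane control and 25.6 after 6 h. It was 1.45-fold higher than in the sevoflurane control. The list medians on the log2 scale were 0.11 for sevoflurane and -0.04 for desflurane. *Sult1e1*, which encodes the estrogen sulfotransferase, had TPM values of 856 (control) and 1619 (6 h) in the sevoflurane pair and 956 (control) and 821 (6 h) in the desflurane pair. The 6 h sevoflurane liver was the one high library, and the 1.89-fold difference did not pass the rule. Among 10 steroid receptors and carriers, 0 genes were called with either agent, and the median log2 changes were 0.01 and -0.02. *Serpina6*, which encodes the corticosteroid-binding globulin, was 1.67-fold lower with sevoflurane (1103 to 659) and 1.07-fold lower with desflurane (1109 to 1039), and *Alb* was 1.05-fold lower and 1.20-fold higher.

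*Hsd17b13* was set beside 10 other lipid droplet genes. Of these, sevoflurane upregulated 2 and downregulated 2, and desflurane upregulated 3 and downregulated 1. Over all genes, the shares were 2.23% and 3.3% with sevoflurane and 2.79% and 1.48% with desflurane. The median log2 changes of the list were 0.14 and 0.16. *Plin2*, which encodes the main coat protein of hepatic lipid droplets, had TPM values of 107 (control) and 208 (6 h) in the sevoflurane pair and 134 (control) and 276 (6 h) in the desflurane pair. Both anesthetized livers were above both controls, as for *Hsd17b13*, and *Plin2* passed the rule with desflurane (2.07-fold) but not with sevoflurane (1.94-fold). The triglyceride lipase gene *Pnpla2* was upregulated by desflurane (2.80-fold), and its inhibitor *G0s2* was upregulated by sevoflurane (47.6 to 143). *Pnpla3* was downregulated by both agents, at TPM values of 2.74 and 1.02 with sevoflurane and 11.7 and 2.29 with desflurane, but the desflurane liver was only 1.20-fold lower than the sevoflurane control. *Cidea* was upregulated by desflurane (3.23-fold), and the remaining calls were *Plin5* (higher with sevoflurane) and *Abhd5* (lower with sevoflurane), both outside the naming rule and given to complete the count. With exchanged controls, the desflurane calls of *Pnpla3* and *Cidea* (1.43-fold higher) and the sevoflurane calls of *Plin5* and *Abhd5* were not retained. The abundant gene *Cideb* was 1.13-fold lower with sevoflurane and 1.07-fold higher with desflurane.

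Over all genes, 2.23% were called upregulated and 3.3% downregulated with sevoflurane, and 2.79% and 1.48% with desflurane. Of the sex-dependent list, sevoflurane upregulated 2 of 16 genes and downregulated 1, and desflurane upregulated 2 and downregulated 1. The calls were *Cux2* (11.4-fold higher), *Onecut1* (2.23-fold higher), and *Bcl6* (3.06-fold lower) with sevoflurane, and *Cyp3a18* (4.06-fold higher), *Cyp2c11* (2.11-fold higher), and *A1bg* (2.22-fold lower) with desflurane. The median log2 changes were -0.11 and -0.14. None of these 6 calls was retained against the control of the other agent, and *Bcl6* and *A1bg* passed in the opposite direction. The most abundant genes of the list were *Cyp2c7* and *Cyp3a2*. *Cyp2c7* was 1.01-fold higher with sevoflurane and 1.69-fold lower with desflurane, and the desflurane control was its highest library (4024). *Cyp3a2* was 1.07-fold lower with sevoflurane and 1.39-fold higher with desflurane, and the desflurane control was its lowest library (1567). Over all lists, 22 calls in 20 genes were made against the own control, and 7 of these calls were retained against the control of the other agent.

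The sequence table used here holds promoters of 3 of the 7 members, from 250 bases before to 50 bases after the start of the RefSeq gene in the GRCr8 build. They are shown because they were available, and the other members had no entry. They belong to the least variable member (*Sts*), the member with both anesthetized livers slightly above the controls (*Hsd17b13*), and the member with the high value in the desflurane control (*Srd5a1*). All are on the plus strand and are written 5′ to 3′, and capitals mark matches on either strand to 5 motifs. These are the GC box GGGCGG, the cAMP response element half-site TGACGT, the TATA box with the letters TATAAA, the CCAAT box, and the nuclear receptor half-site with the letters AGGTCA.
*Srd5a1*, GRCr8 chr1:35514664-35514963: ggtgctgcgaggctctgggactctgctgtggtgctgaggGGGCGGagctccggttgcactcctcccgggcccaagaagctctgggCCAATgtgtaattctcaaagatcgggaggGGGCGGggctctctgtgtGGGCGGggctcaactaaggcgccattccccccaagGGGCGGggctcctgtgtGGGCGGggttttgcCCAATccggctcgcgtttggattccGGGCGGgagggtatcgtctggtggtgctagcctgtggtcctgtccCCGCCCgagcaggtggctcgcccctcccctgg
*Hsd17b13*, GRCr8 chr14:6056539-6056838: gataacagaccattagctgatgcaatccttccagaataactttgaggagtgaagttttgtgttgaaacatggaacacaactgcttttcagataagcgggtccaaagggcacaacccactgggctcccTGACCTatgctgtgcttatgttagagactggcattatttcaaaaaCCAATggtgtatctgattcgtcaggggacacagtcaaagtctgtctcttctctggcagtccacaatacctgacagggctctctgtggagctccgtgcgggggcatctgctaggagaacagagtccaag
*Sts*, GRCr8 chrX:46102510-46102809: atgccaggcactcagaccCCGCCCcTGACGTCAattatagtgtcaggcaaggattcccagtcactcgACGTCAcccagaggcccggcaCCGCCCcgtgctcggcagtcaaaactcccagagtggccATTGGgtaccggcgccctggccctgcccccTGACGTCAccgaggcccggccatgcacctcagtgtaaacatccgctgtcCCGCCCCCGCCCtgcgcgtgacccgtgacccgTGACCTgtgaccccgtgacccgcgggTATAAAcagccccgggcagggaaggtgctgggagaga

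The *Srd5a1* promoter held 7 matches to the GC box and 2 to the CCAAT box. The *Sts* promoter held 4 GC boxes, 5 matches to the half-site TGACGT, of which some overlap as the 2 strands of 1 palindrome, and 1 match each to the TATA box, the CCAAT box, and the nuclear receptor half-site. The *Hsd17b13* promoter held 1 match to the CCAAT box and 1 to the nuclear receptor half-site. G and C made up 67.7%, 66.7%, and 48% of the bases in *Srd5a1*, *Sts*, and *Hsd17b13*, compared with a median of 51.7% over 33469 promoters of the same length. Of these promoters, 33.1% held a GC box, 7.94% the cAMP response element half-site, 14.2% the TATA box, 37.5% the CCAAT box, and 16.2% the nuclear receptor half-site. The matches are a description of letters, and no binding was measured.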

How the data were processed

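Per the paper and the labels, the authors trimmed the paired-end reads, mapped them to rn6 with HISAT2, sorted them with SAMtools, and ran StringTie with the refGene annotation. The deposited tables give the coverage signal, FPKM, and TPM per gene. The deposited TPM values of the assembled rows add up to 1000000, and the annotated rows used here add between 778865 (desflurane control) and 812159 (desflurane, 6 h) on the same scale. This sum differs by library and was not equalized, which bears on a call close to the 2-fold limit. The library kit is named differently in the paper and in the labels, and both names describe stranded total RNA libraries. Annotated rows longer than 200 base pairs were used here, and TPM values were summed by symbol. Each member had 1 row. Depth was derived from FPKM and coverage, and the files used here hold no read counts.

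The calling rule was TPM higher than 2 in the higher state and a difference of more than 2-fold. With 1 library per condition, no test result is given for either agent alone. After the data were seen, both 6 h livers were tested against both controls with limma 3.58.1 in R 4.3.3 on log2(TPM + 1), without and with the agent as a block. The code was checked on simulated data. Members, gene lists, and alternatives were chosen with earlier results of these data known. Named list genes were the 2 most abundant and up to 4 with the largest change among called genes of each list, with the 3 nearest genes to each member, and other names are marked as chosen after their values were seen. Reference sequences were from RefSeq (GRCr8). Python 3.11.15 with pandas 2.3.3 and numpy 2.4.6 was used.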

Additional observations from a re-analysis of the deposited data

Results flagged for a closer look

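For 4 members, the value against the own control had opposite signs with the 2 agents. No such value passed the 2-fold rule, and these differences were not tested. The log2 change with desflurane minus that with sevoflurane was 1.29 for *Akr1d1*, 0.93 for *Hsd17b2*, -0.82 for *Hsd17b6*, and 0.21 for *Sts*. Against the control of the other agent, the log2 changes with sevoflurane and desflurane were 0.11 and 0.09 for *Akr1d1*, 0.58 and -0.33 for *Hsd17b2*, 0.26 and -0.07 for *Hsd17b6*, and 0.06 and 0.03 for *Sts*.

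Outside the annotated genes, an assembled row on the strand opposite to *Hsd17b2* (rn6 chr19:50256415-50269152) was listed after 6 h of sevoflurane with a TPM value of 23.9, which is 0.0331 of the *Hsd17b2* value in that library. No such row was listed in the other 3 libraries. A row of 412 bases opposite to *Akr1d1* was listed with a TPM value of 40.4 in the desflurane control and in no other library.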

How the results depend on the processing

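The number of members called with sevoflurane was 1 under all 10 alternatives. With desflurane, it was 0 after median-of-ratios scaling and with FPKM, since *Cyp17a1* was then 1.87-fold and 1.94-fold higher, and 3 with a 1.5-fold limit, which added *Akr1d1* and *Hsd17b2*. Against the control of the other agent, the 1.5-fold limit gave 2 members with sevoflurane, and FPKM gave 0 with desflurane. Between the controls, the number was 3 with the 1.5-fold limit and 1 (*Hsd17b2*) with FPKM, with assembled rows added, and with assembled rows in place of annotated rows, a setting chosen after seeing the data. Between the anesthetized livers it was 1 with the 1.5-fold limit. The 20 called list genes became 34 with the 1.5-fold limit and 13 with the mean of the controls. The sign of a member's change against its own control differed in 5 of 14 cases with the control of the other agent, and for *Hsd17b2* with sevoflurane also with the mean of the controls. Adding assembled rows counts the same reads again. With both agents together, 0 members passed the limma test. The number was also 0 in the fit with the agent as a block, with 0.1 added to TPM, and without a TPM limit. When each library was left out, 1 side kept a single liver, and the log2 difference of *Cyp17a1* was between 1.04 and 1.52. The adjusted p from limma for *Cyp17a1* was between 0.118 and 0.382 over the fits that kept all libraries. The number of all genes called was 6, and it was 1 with the agent as a block, 3 with 0.1 added to TPM, and 3 without a TPM limit. For the 2-fold calls of a single agent, no library could be left out because each condition has 1. These tests were added after seeing the data. The cause of these changes was not tested.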
